A study of Mus musculus with 71 samples.

Results

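The potassium channel genes of the mouse were followed through chromatin profiles of Polycomb repressive complex 1 (PRC1) and of its partner histone mark, in J1 embryonic stem cells (ESC) and their differentiated progeny. A gene was taken when its symbol starts with Kcn, the non-coding Kcnq1ot1 left out, and when at least 1 of 9 peak tables gave it a peak no farther than 10 kb from the transcription start. 84 such genes were found among 13005 genes with a peak that close, and each gene was represented in each table by its strongest peak. RefSeq lists 97 Kcn genes, of which 13 had no such peak.

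The cells expressed CBX7, the chromodomain subunit of PRC1, in the wild-type form (WT), as CBX7-CaPS, which carries a Polycomb domain that belongs to committed cells, or as CBX7-mCaPS, whose difference from CBX7-CaPS the labels do not spell out. All 3 genotypes are J1 cells, and ESC were kept on feeder fibroblasts with LIF. WT and CaPS cells were also profiled as neural progenitor cells (NPC) at days 6 and 8 and as embryoid bodies (EB) at day 10, and mCaPS cells as ESC only. CBX7, RING1B (the catalytic PRC1 subunit) and trimethylated lysine 27 of histone H3 (H3K27me3) were mapped by chromatin immunoprecipitation (ChIP), and RING1B and H3K27me3 also by CUT&RUN. The tested ChIP comparisons rest on 2 or 3 libraries per group, matched across genotypes by the experiment number in their titles, the H3K27me3 ChIP of day-8 NPC on 1 pooled value per genotype, and the CUT&RUN comparisons on 1 library. Whether the lines are single clones, and whether libraries of 1 group came from separate cultures, was not given in the sources used here. The p-values thus rest on the spread between these libraries only. That spread was taken as a trend over all peaks, so the spread of a single gene does not enter its limma p-value. Libraries with a CBX7 knockout were not analysed here.

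Potassium channels let potassium ions leave or enter the cell and so set the resting potential, end the action potential and time the firing of neurons, heart and muscle. Their pore-forming proteins fall into voltage-gated channels, inward rectifiers, two-pore leak channels and channels opened by calcium or sodium, and a further set of silent or auxiliary subunits alters the pores they join. Most are genes of differentiated, often electrically active cells, and in ESC many developmental and tissue genes of this kind carry PRC1 and the H3K27me3 placed by Polycomb repressive complex 2, the pair of complexes through which they are held silent. In mammals PRC1 and PRC2 collect at CpG-rich promoters.

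For that reason the promoters of 4 genes are shown. RefSeq (GRCm38.p6) gave a window of 300 bases around the start, 250 upstream and 50 downstream, for 71 of the 97 Kcn genes. Kcnc4, a fast voltage-gated channel (chr3, minus strand, chr3:107458849-107459148), Kcnj4, an inward rectifier (minus strand, chr15:79505192-79505491), and Kcnk13, a two-pore channel (plus strand, chr12:99964249-99964548), each lay wholly inside a CBX7 peak in ESC. Kcne4, an auxiliary subunit (plus strand, chr1:78816661-78816960), had no peak in any table. Each is written 5′ to 3′ on the gene's strand, with every CG dinucleotide in capitals.
Kcnc4: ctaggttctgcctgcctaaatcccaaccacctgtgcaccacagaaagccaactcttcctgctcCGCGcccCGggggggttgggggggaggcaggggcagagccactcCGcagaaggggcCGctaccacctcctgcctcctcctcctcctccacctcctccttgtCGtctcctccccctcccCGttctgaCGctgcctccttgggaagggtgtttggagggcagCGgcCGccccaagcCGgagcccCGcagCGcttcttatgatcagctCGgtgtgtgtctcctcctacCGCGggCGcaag
Kcnj4: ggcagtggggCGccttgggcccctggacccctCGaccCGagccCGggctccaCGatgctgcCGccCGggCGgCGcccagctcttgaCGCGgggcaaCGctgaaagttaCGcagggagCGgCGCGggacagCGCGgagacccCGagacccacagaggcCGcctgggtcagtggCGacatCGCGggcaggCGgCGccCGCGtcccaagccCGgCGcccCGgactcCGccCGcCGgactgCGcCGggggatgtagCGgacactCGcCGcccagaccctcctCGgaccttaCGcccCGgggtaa
Kcnk13: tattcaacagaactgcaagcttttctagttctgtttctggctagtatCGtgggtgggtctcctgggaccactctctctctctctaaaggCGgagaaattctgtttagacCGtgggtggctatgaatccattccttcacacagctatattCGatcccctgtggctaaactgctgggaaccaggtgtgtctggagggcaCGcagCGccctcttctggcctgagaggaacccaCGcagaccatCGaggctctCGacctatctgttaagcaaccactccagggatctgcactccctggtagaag
Kcne4: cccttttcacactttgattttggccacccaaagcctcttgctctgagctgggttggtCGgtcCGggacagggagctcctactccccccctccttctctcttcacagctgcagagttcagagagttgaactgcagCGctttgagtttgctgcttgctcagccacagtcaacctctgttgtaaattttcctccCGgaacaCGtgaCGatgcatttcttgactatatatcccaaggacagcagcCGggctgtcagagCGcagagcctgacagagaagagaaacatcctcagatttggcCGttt

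The Kcnj4 window holds 41 CG, the Kcnc4 window 17, and the Kcnk13 and Kcne4 windows 9 each. The number of CG in these windows thus does not separate Kcnk13 from Kcne4. The Kcnk13 window lies near the upstream end of its CBX7 peak (chr12:99964118-99968027), so it does not show most of the sequence under that peak. Over the 59 windows of the 44 Kcn genes with a CBX7 peak in ESC the median was 12.0 CG, against 5.0 over the 12 windows of 9 Kcn genes with no peak in any table, 20.0 for all genes with a CBX7 peak and 7.0 for all 32851 promoter windows. The median of the CBX7-bound channel windows thus lay below that of CBX7-bound genes in general and above that of all windows. GCGC was present in 66.1% and CGCG in 55.9% of the CBX7-bound channel windows, below the 75.9% and 67.5% of all genes with a CBX7 peak. The shares were 33.3% and 8.3% in the 12 channel windows with no peak, and 47.1% and 38.0% in all windows. Each of these words reads the same on both strands and contains CG, and GCGC and CGCG can overlap. Of the 44 genes, 34 had a window that overlapped the CBX7 peak. These shares are descriptions of sequence and carry no test.

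Channel genes carried Polycomb marks often. Of the 94 protein-coding Kcn genes, 66.0% had a CBX7 and RING1B ChIP peak within 10 kb in ESC, against 22.2% of 21900 protein-coding genes, and 63.8% had an H3K27me3 ChIP peak, against 15.8%. CBX7 and RING1B were counted over 1 joint set of 6326 peaks in ESC, so their presence is the same by construction. Shares this high were not particular to potassium channels. For CBX7 they were 75.0% of 4 pacemaker, 69.2% of 26 calcium, 42.9% of 14 sodium, 27.3% of 22 transient receptor potential and 11.1% of 9 chloride channel genes. At day 8 RING1B peaks lay near 56.4% of Kcn genes and near 17.1% of all genes. A peak in at least 1 of the 9 was found near 81 of the 94 genes (86.2%), against 51.7% of all genes.

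The channel classes differed in how many of their genes were marked. All 10 silent voltage-gated genes (Kcnf, Kcng, Kcns, Kcnv), whose products form no pore alone, had CBX7 and RING1B in ESC, as did 25 of 30 conducting voltage-gated genes, 9 of 14 two-pore, 5 of 8 calcium- or sodium-activated and 8 of 15 inward rectifier genes. Auxiliary subunits stood lowest in this ChIP peak set, with 5 of 17. By RING1B CUT&RUN in ESC they had 10 of 17, nearer to the other classes. Calcium- or sodium-activated genes were the lowest class for H3K27me3 CUT&RUN in ESC (3 of 8) and RING1B CUT&RUN in day-10 EB (2 of 8). 35 genes had a peak in all 9 tables, among them 17 conducting voltage-gated genes, 7 two-pore genes and 5 inward rectifiers, but only 3 silent (Kcng2, Kcng3 and Kcns3), 2 auxiliary (Kcnab3 and Kcnip3) and 1 calcium-activated gene (Kcnn1). 50 genes had a peak in every one of the 5 ESC tables. The 13 genes with none were Kcnb2, Kcnd1, Kcne4, Kcnj13, Kcnj14, Kcnj15, Kcnj16, Kcnk7, Kcnk18, Kcnmb1, Kcnmb3, Kcnrg and Kcnu1.

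**Figure D1:**
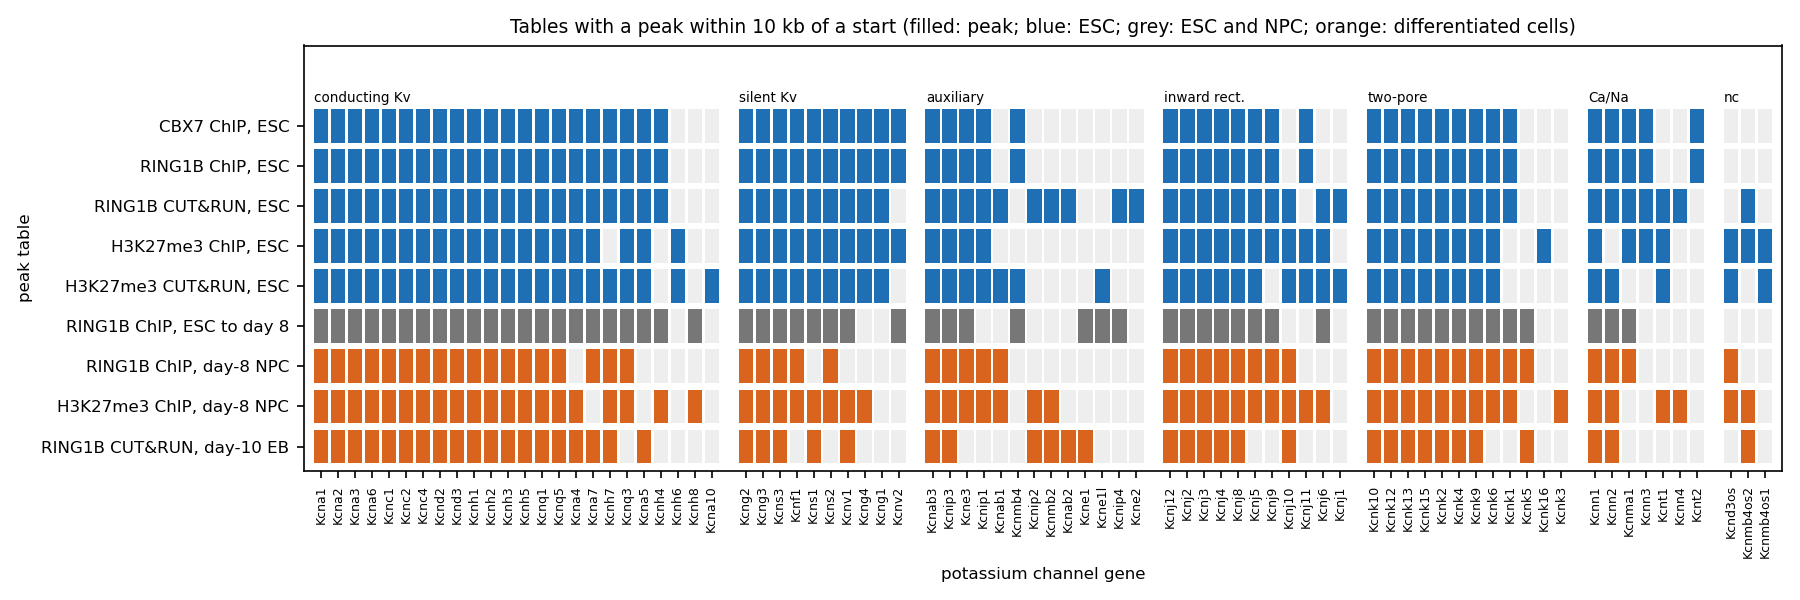
Presence of a peak within 10 kb of a start for 80 of the 84 potassium channel genes (columns, grouped by class) in each of the 9 peak tables (rows; nc is non-coding); filled squares mark a peak, blue for ESC tables, grey for the table that spans ESC to day 8 and orange for differentiated cells. The conducting voltage-gated and two-pore blocks are filled almost throughout on the left, whereas the auxiliary block is mostly empty beyond its first 4 genes.

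Stage-limited genes were few. Kcne1, Kcnh8, Kcnk3 and Kcnk5 had a peak in a differentiated-cell table and in none of the 5 ESC tables, although Kcne1, Kcnh8 and Kcnk5 were also counted in the joint table of ESC and NPC. In the other direction 13 gene names had ESC peaks and none in the tables of differentiated cells alone: Kcna10, Kcne1l, Kcne2, Kcng1, Kcnh6, Kcnip4, Kcnj1, Kcnk16, Kcnmb4, Kcnmb4os1, Kcnn3, Kcnt2 and Kcnv2. Of these, Kcne1l, Kcnip4, Kcnmb4 and Kcnv2 were also counted in the joint table of ESC and NPC. For Kcng1 this rests on the distance limit, since its day-8 H3K27me3 peak lay 11528 bp from the start at 191 tags per 10 M. Likewise Kcnh4 was just inside the limit for CBX7 (9972 bp) and just outside it for H3K27me3 ChIP in ESC (10514 bp). Of the 62 genes with CBX7 in ESC, 55 also had an H3K27me3 ChIP peak there. Genes such as Kcnh4, Kcnk1 and Kcnt2 had CBX7 and RING1B with no H3K27me3 peak in either ESC table, and Kcna10, Kcnh6, Kcnk16 and Kcnmb4os1 had H3K27me3 peaks and no CBX7 or RING1B peak in any table. These lists go by the gene name each peak was given. At 2 loci one peak region is split between a gene and its non-coding neighbour: H3K27me3 over the start of Kcnd3 is listed under Kcnd3os in both ESC tables, and H3K27me3 and RING1B CUT&RUN peaks inside the Kcnmb4 CBX7 region are listed under Kcnmb4os2 in 4 tables, 2 of them of differentiated cells.

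Values are tags in the peak per 10 M tags of the library (M, mega). Library totals ran from 2.01 M to 49.13 M tags, so 3 tags, taken as the limit of detection, correspond to between 0.611 and 14.9 tags per 10 M. In the CBX7 table the libraries of experiment 2 stood apart, with 16.96% (WT) and 7.1% (CaPS) of their tags in peaks against 2.63% to 6.4% in the other 4, and so did the WT RING1B library of experiment 2, with 19.34% against 3.47% to 9.45% in the other 5. In the time course the CaPS day-6 library of experiment 5 stood apart, with 12.07% of its tags in peaks against 5.61% to 6.59% in the other day-6 libraries. The assays measure chromatin, so marker genes say only where peaks lay. The neural progenitor markers Sox1, Pax6, Olig2 and Neurog2 had a peak in every table, and Nes in every table except the day-8 H3K27me3 table. Between 2 and 5 of 7 pluripotency markers did, and so did 5 or 6 of 6 mesoderm and endoderm markers and 4 or 5 of 6 feeder fibroblast markers. The share of feeder cells in the ESC libraries was not tested.

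In WT ESC the channel peaks were wide. The median CBX7 peak of the 62 genes spanned 2474 bp and held 73.4 tags per 10 M, which is 29.4 per kb. Over all 6326 peaks the medians were 1052 bp, 15.8 tags and 16.8 per kb. Over the strongest peak of every gene, the way channel genes were represented, they were 1208 bp, 20.2 tags and 18.6 per kb. The strongest CBX7 peak was that of Kcna1, a voltage-gated channel of axons (chr6:126641145-126647137, mm10). Its centre lay in the single intron, 1660 bp from the start, and the peak, 5993 bp wide, also spanned the start. It held 549.7, 1739 and 546 tags per 10 M in WT experiments 1, 2 and 3, a mean of 158 per kb. The next were 3 two-pore channels, Kcnk9 at 147 per kb, Kcnk13 at 93.0 and Kcnk12 at 74.1, followed by Kcnc4 at 69.4. Per kb Kcna1 was above Kcnk9 in experiments 2 and 3 and below it in experiment 1, whereas Kcnk9 was above Kcnk13 in every experiment. The ranges of Kcnk13, Kcnk12 and Kcnc4 over the experiments overlapped. Differences between genes in this order were not tested. At the other end Kcnt2, a sodium-activated channel, held 1.14, 4.07 and 4.53 tags per 10 M, below 3 tags in experiments 1 and 2. RING1B ChIP put the same 4 genes first per kb, Kcna1 at 166, Kcnk9 at 142, Kcnk13 at 102 and Kcnk12 at 84.9. By class, two-pore genes had a median CBX7 level of 45.6 per kb, and the other classes lay between 22.7 and 30.1.

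CBX7 at channel genes was lower in CaPS than in WT ESC on the deposited scale, which counts tags against the whole library. It fell at 49 of 62 genes and rose at none (limma on log2(value + 1), experiments as blocks, adjusted p under 0.05), where 44.3% of all 6326 peaks fell and 0.0632% rose. The median log2 difference was -1.04 for channel genes and -0.85 for all peaks. With all libraries brought to the same sum over peaks 2 fell, none rose and the median was 0.00, beside 0.12 for all peaks. The share of all peaks called at this scaling is not reported, here or below, so such counts stand without a background. Stronger peaks pass the test more easily: among peaks with a mean of at least 20 tags per 10 M 43 of 45 channel genes fell, beside 90.1% of all such peaks, with a median of -1.08 in both. 56 of the 62 genes were lower in CaPS in every one of the 3 experiments, beside 60.9% of all peaks. The within-experiment medians were -1.24, -1.12 and -0.80 for the channel genes and -0.91, -1.14 and -0.44 for all peaks.

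Among conducting voltage-gated genes 20 of 25 fell (median log2 -1.02). Kcna6, a delayed rectifier of neurons, had the largest drop, from 128, 427 and 146 tags per 10 M in WT to 39.8, 129 and 50.8 in CaPS (log2 -1.63 ± 0.27 SE, adjusted p = 1.72e-07). CaPS was below WT in each experiment, and only the CaPS library of experiment 2 reached the lowest WT library. Its chromosome 6 neighbour Kcna1 went from 549.7, 1739 and 546 to 172, 508 and 241 (log2 -1.54, adjusted p = 1.57e-06), and no CaPS library reached a WT library. Kcnd3, a pore of the fast transient current of heart and neurons, went from 183, 435 and 143 to 55.7, 127 and 69.4 (log2 -1.50), again without overlap. Kcna3, the channel of lymphocytes, Kcnq5, a pore of the muscarine-sensitive current, and Kcna2, another axonal channel, fell by 1.50, 1.40 and 1.40 on the log2 scale. Kcna7 was the 1 member with a positive value (0.38), at 3.43, 5.70 and 1.98 tags per 10 M in WT and 2.99, 11.4 and 2.95 in CaPS, close to 3 tags in 5 of the 6 libraries.

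Silent subunits fell at 8 of 10 genes (median -1.08). Kcng3 went from 94.8, 248 and 92.8 tags to 27.9, 89.4 and 37.5 (log2 -1.49, adjusted p = 2.34e-06), and Kcnv1 from 17.1, 53.0 and 17.2 to 9.45, 5.70 and 9.06 (log2 -1.55 ± 0.39). Both were lower in CaPS in every experiment, and at both genes the 3 CaPS libraries lay below the 3 WT libraries. The Kcnv1 value of CaPS in experiment 2 is below 3 tags, and without experiment 2 its log2 difference was -0.83 and did not pass (adjusted p = 0.0878). Kcng2, the highest of the class at 47.6 per kb, went from 73.5, 153 and 75.0 to 37.8, 70.3 and 32.3 (log2 -1.08, adjusted p = 0.000668), also without overlap. Auxiliary subunits fell at 3 of 5 genes, Kcnip3, a calcium sensor of the transient channels, Kcnab3, a cytoplasmic beta subunit, and Kcnmb4, the beta subunit of neuronal calcium-activated channels (log2 -1.09, -1.09 and -0.96).

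Inward rectifiers fell at 6 of 8 genes (median -0.94). Kcnj3, a subunit of the channel opened by G proteins in heart and brain, went from 51.4, 95.3 and 54.9 to 12.9, 36.1 and 27.7 (log2 -1.42 ± 0.30, adjusted p = 3.51e-05), with all CaPS libraries below all WT libraries. Kcnj4 had the smallest difference among the 6, from 116, 206 and 59.4 to 55.2, 133 and 45.9 (log2 -0.68, adjusted p = 0.0309), and its groups overlapped. Two-pore genes fell at 8 of 9 (median -1.14). Kcnk13, whose promoter is shown above, went from 219, 661 and 211 to 70.2, 238 and 107 (log2 -1.36, adjusted p = 8.41e-06). Kcnk9, an acid-sensitive leak channel, went from 542, 1243 and 387 to 223, 618 and 248 (log2 -0.97, adjusted p = 0.00203). CaPS was lower than WT in every experiment at both genes, and the CaPS libraries of experiment 2 reached the WT libraries of experiments 1 and 3. Of the calcium- or sodium-activated genes 4 of 5 fell, led by Kcnn1, a small-conductance channel, from 97.1, 322 and 109 to 29.9, 98.9 and 44.8 (log2 -1.54, adjusted p = 8.85e-07).

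The 13 genes that did not pass included Kcna4, Kcna7, Kcne3, Kcng1, Kcnh2, Kcnip1, Kcnj5, Kcnj11, Kcnk15, Kcnq3, Kcnt2 and Kcnv2. The class medians spanned -1.14 to -0.94, and differences between classes were not tested. Kcna1, Kcna5, Kcna6, Kcnd2 and Kcnj8 lie on chromosome 6, and Kcng4, Kcnk1 and Kcnn1 on chromosome 8, where all peaks had medians of -1.07 and -1.01 against -0.83 elsewhere. Without these 8 genes 41 of 54 fell, with a median of -1.01. Leaving out experiment 1 left 21 called genes, beside 18.6% of all peaks, and leaving out experiment 2 left 29, beside 24.1%, and without the experiment as a block none was called.

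**Figure D2:**
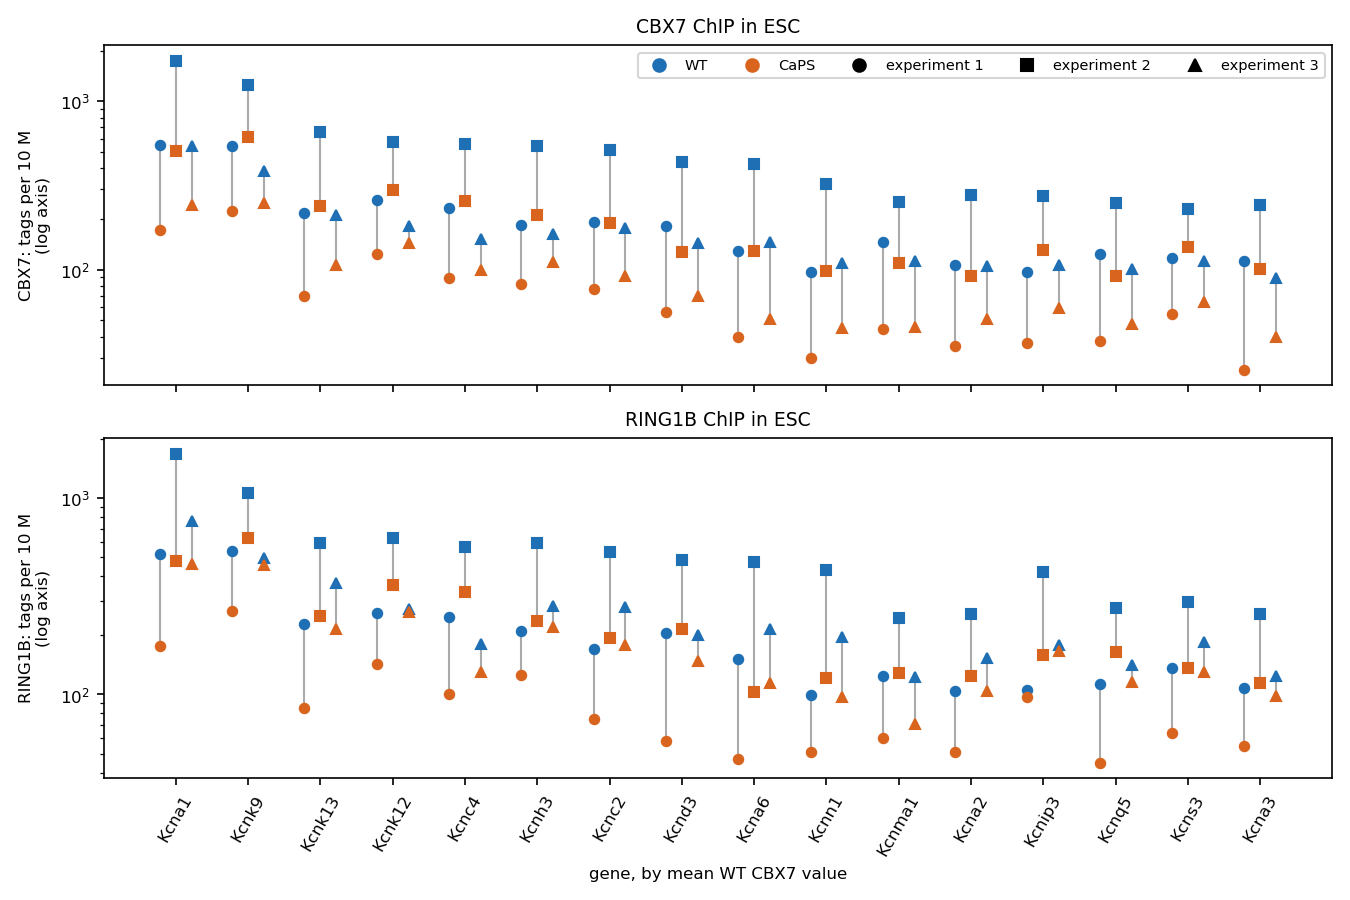
CBX7 (top) and RING1B (bottom) ChIP values, in tags per 10 M on a log axis, of 16 channel genes with high mean WT CBX7 values in ESC; blue is WT, orange CaPS, and a grey line joins the libraries of 1 experiment (circle 1, square 2, triangle 3). Every orange CBX7 point lies below the blue point of its experiment, and the RING1B lines of experiment 3 are the shortest at all 16 genes except Kcnn1.

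RING1B ChIP in ESC was lower in CaPS at all 62 channel genes by the fitted value, but no single gene passed the test. 0 of 62 were called by limma, where 0.142% of all peaks fell, 23 had an unadjusted p under 0.05, beside 18.6% of all peaks, and edgeR's quasi-likelihood test called 0. The median log2 difference was -0.84, beside -0.67 for all peaks, and -0.06 beside 0.07 with all libraries brought to the same sum over peaks. 45 genes were lower in every experiment, beside 42.2% of all peaks. The within-experiment medians were -0.85, -1.23 and -0.29, beside -0.53, -1.42 and 0.0 for all peaks, so experiment 3 gave the smallest difference, and without it 18 genes passed, beside 17.4% of all peaks. Restricted to peaks with a mean of at least 20 tags per 10 M, 2 genes passed, beside 2.3% of such peaks. A further ESC pair, of experiment 5, was counted only over the peaks of the time course. There the median channel gene held 87.1 tags per 10 M in WT and 81.6 in CaPS, beside 11 and 10.3 for all peaks. The ESC libraries of experiment 3 are in both sets, with totals of 19.18 M (WT) and 27.09 M (CaPS) here and 18.6 M and 24.55 M there. By class, an unadjusted p under 0.05 was found at 10 of 25 conducting, 5 of 10 silent, 4 of 9 two-pore, 2 of 8 inward rectifier, 2 of 5 calcium- or sodium-activated and 0 of 5 auxiliary genes.

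The smallest p-value was that of Kcna6, which had 152, 473 and 215 tags of RING1B per 10 M in WT and 46.9, 103 and 114 in CaPS (log2 -1.59 ± 0.41, adjusted p = 0.0576). Kcna1 had 521, 1689.8 and 766 in WT against 176, 481 and 464 in CaPS (log2 -1.36, adjusted p = 0.0694), and Kcnn1 had 99.5, 429 and 196 against 50.6, 121 and 97.1 (log2 -1.26, adjusted p = 0.113). For Kcna6 and Kcna1 no CaPS library reached a WT library, whereas for Kcnn1 the CaPS library of experiment 2 exceeded the WT library of experiment 1. CBX7 and RING1B were pulled from cells of the same 3 experiments, so the 2 sets of values are not independent. Kcnk9 (542, 1064 and 498 in WT against 265, 629 and 457 in CaPS, log2 -0.64) and Kcnk12 (log2 -0.57) had smaller differences, and the auxiliary genes the smallest class median (-0.64).

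H3K27me3 ChIP in ESC showed no called difference at channel genes. 0 of 63 passed limma, where 0% of all 9195 peaks did, none had an unadjusted p under 0.05, beside 1.1% of all peaks, and edgeR called 0. The median log2 difference was -0.09, beside -0.03 for all peaks, and its sign depended on the experiment: 0.26 in experiment 1 and -0.40 in experiment 5, beside 0.30 and -0.32 for all peaks. Kcnj4 read 215 and 427 tags per 10 M in WT and 261 and 307 in CaPS (log2 -0.10 ± 0.51 SE), and both CaPS libraries lay between the WT libraries. Kcna1 read 182 and 336 in WT and 165 and 207 in CaPS (log2 -0.42 ± 0.51). The SE comes from a trend over all peaks and not from the spread of the gene itself.

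The smallest p-values belonged to Kcnj3 (log2 -0.69), Kcng4 (-0.69) and Kcnd3 (0.97), each with an adjusted p of 1. The peak listed under Kcnd3 lies in an intron, 7476 bp from the start, and is low, at 1.54 and 7.52 in WT and 10.5 and 6.20 in CaPS, and its value turned to -0.24 without experiment 1. The peak over the Kcnd3 start, listed under Kcnd3os, read 81.4 and 148 in WT and 97.3 and 101 in CaPS (log2 -0.15). Per kb Kcna1 led in WT, and Kcne3 and Kcnf1 were among the next at 38.2 each. The median channel gene was at 28.3 and the median of all peaks at 17.4. Over the strongest peak of every gene, the way channel genes were represented, the median was 25.2.

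**Figure D3:**
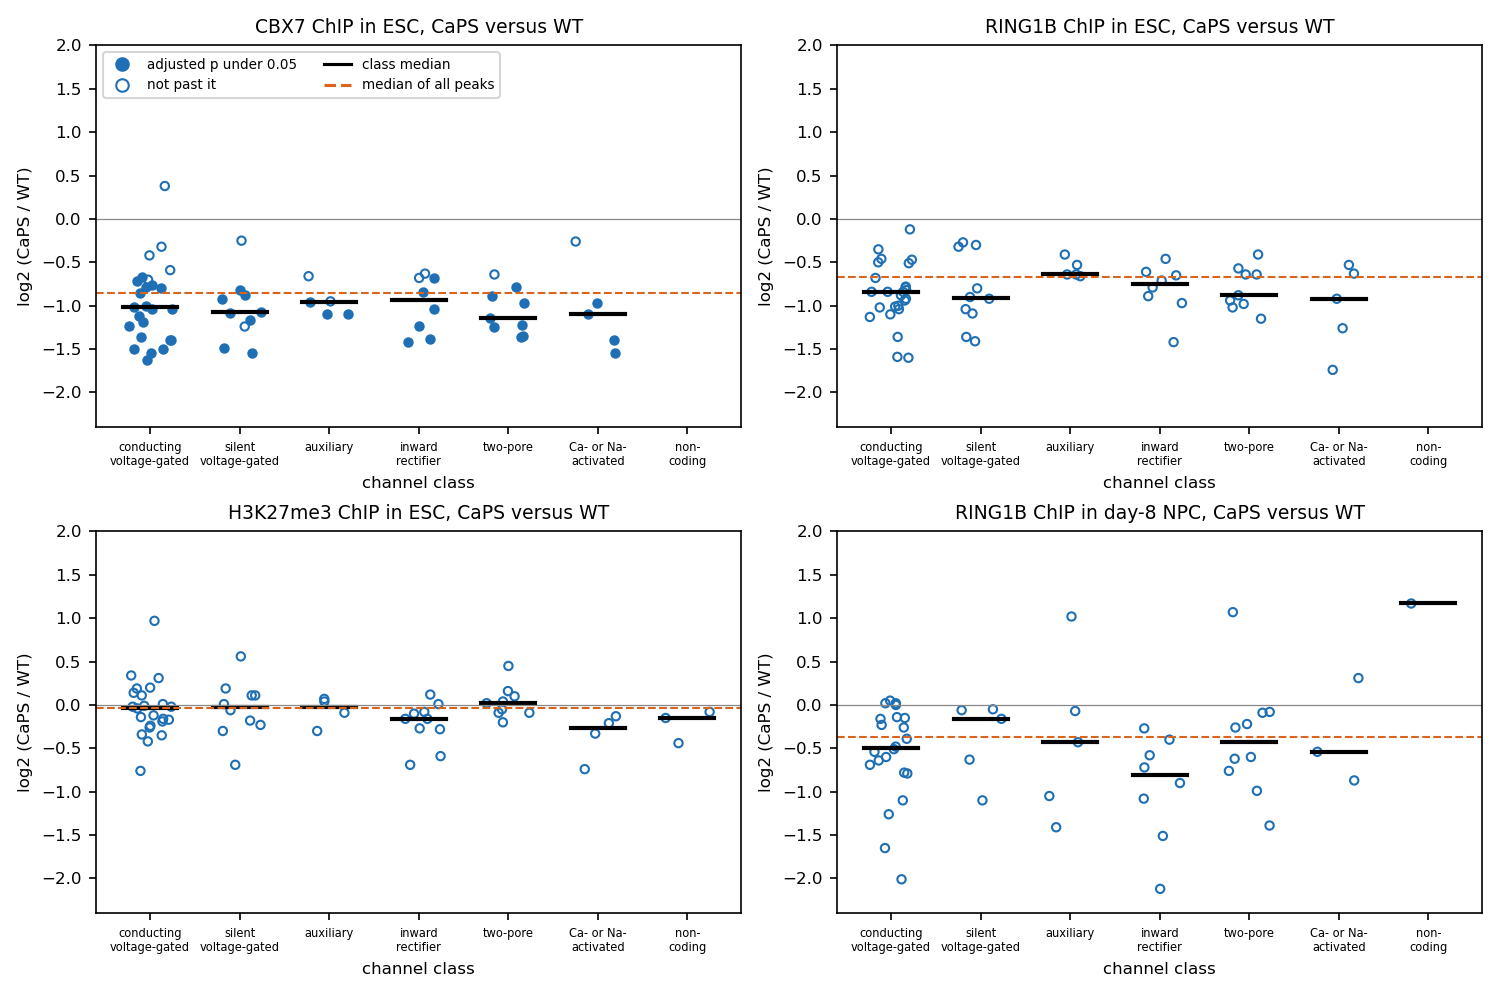
Log2 difference between CaPS and WT for each channel gene (points) by class in 4 ChIP comparisons; filled points passed an adjusted p of 0.05, black bars are class medians and the dashed line is the median of all peaks. CBX7 has 49 filled points, all below 0, and the other panels have none, with H3K27me3 scattered around 0.

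RING1B CUT&RUN, with 1 library per genotype, added the mCaPS cells. With no replicates a ratio past 2-fold was counted as a difference, and intervals are exact 95% binomial intervals that cover counting error only. CaPS was below WT past 2-fold at 22 of 70 channel genes and above it at none, beside 27.2% of all peaks lower and 0.841% higher. mCaPS was below WT at 45 of 70 and above it at none, beside 51.3% and 0.613%. With all libraries brought to the same sum over peaks 1 gene was lower in CaPS, and in mCaPS 1 was lower and 1 higher. The median ratios were 0.571 and 0.444, beside 0.631 and 0.493 for all peaks. The interval excluded 1 at 45 and 56 genes. Such interval counts, here and below, were not made over all peaks and so have no background. More tags give a narrower interval, and the WT median was 44.7 tags per 10 M for channel genes. It was 17.6 for all peaks and 20.4 for the strongest peak of every gene. By the 2-fold counts CaPS stood near its background, and mCaPS, at 45 of 70 genes beside 51.3% of all peaks, somewhat above it, with no test. By class the CaPS count was 11 of 25 conducting voltage-gated, 6 of 10 inward rectifier, 2 of 9 two-pore, 2 of 6 calcium- or sodium-activated, 1 of 9 silent and 0 of 10 auxiliary genes, and the mCaPS count 19, 4, 8, 3, 5 and 5 of the same genes, with no test between classes. Between mCaPS and CaPS 5 genes were lower (Kcna5, Kcnip1, Kcnk15 and Kcnq3 among them) and 1 higher (Kcnj6) past 2-fold, beside 13.9% and 4.88% of all peaks, the median ratio was 0.788, and the interval excluded 1 at 12 genes, all of them lower in mCaPS.

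In WT the highest levels per kb were those of Kcnk13 at 35.5, Kcnip3 at 34.5 and Kcna1 at 33.8. At Kcna1 the values were 249 tags per 10 M in WT, 119 in CaPS and 72.3 in mCaPS. Among genes with at least 20 tags the lowest CaPS to WT ratios, after Kcnj6, were those of Kcnma1, the large-conductance calcium-activated channel (0.339, interval 0.17 to 0.617), Kcnk2, a mechanically gated leak channel (0.366, 0.229 to 0.561), and Kcnc4 (0.374, 0.269 to 0.519). Among the highest were Kcnj4 (0.866), Kcna5 (0.842) and Kcnh2 (0.833), and their intervals held 1. In mCaPS the lowest ratios to WT were those of Kcnk15, a two-pore gene (0.218, 0.095 to 0.435), Kcnq3 (0.249), Kcna5 (0.265) and Kcng2 (0.287), and the highest those of Kcnj2 (0.793), Kcnn1 (0.7), Kcnh5 (0.699) and Kcnj6 (0.697). Against CaPS itself mCaPS was lowest at Kcna5 (23.8 to 7.50 tags, ratio 0.315, 0.138 to 0.73) and Kcnk15 (0.321). Inward rectifiers had a median log2 difference of 0.03 between mCaPS and CaPS, beside -0.36 for all peaks, with no test, and the median of all 70 genes turned to 0.20 at the same sum over peaks.

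Kcnj6, a subunit of the G-protein-opened channel, is listed at 0 in the CaPS library, beside 33.5 in WT (64 tags) and 23.4 in mCaPS. Against a limit of 3 tags this is at least 12.7-fold lower. The CaPS library lists 0 at 64 of 10106 peaks, against 4 in WT and 32 in mCaPS, and these include all 20 peaks of one stretch of chromosome 1 and all 11 of one of chromosome 5. RING1B ChIP at Kcnj6 read 21.8 and 8.27 in the 2 CaPS ESC libraries of the time course, the second being below 3 tags, and H3K27me3 CUT&RUN read 136 in WT and 146 in CaPS. The reason for the zeros was not tested. Without peaks listed at 0 the count of lower genes was 21.

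**Figure D4:**
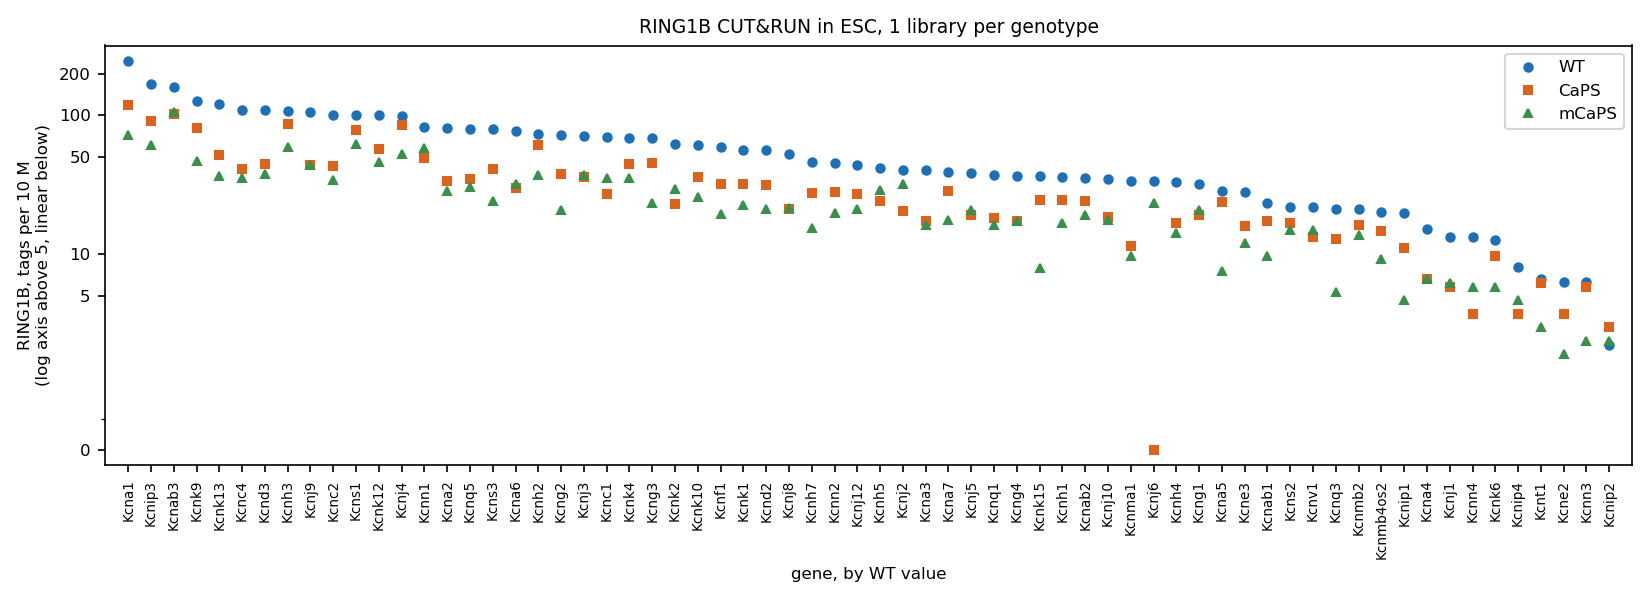
RING1B CUT&RUN values of 66 of the 70 channel genes in ESC, in tags per 10 M (log axis above 5, linear below), with genes ordered by their WT value; circles are WT, squares CaPS and triangles mCaPS, 1 library each. The WT points form the upper edge almost throughout, CaPS and mCaPS interleave below them, and Kcnj6 is the 1 point at 0.

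H3K27me3 CUT&RUN in ESC passed the 2-fold mark at few genes. 2 of 64 channel genes were lower in CaPS past 2-fold and none higher, beside 1.08% and 4.57% of all peaks. The median ratio was 1.21, beside 1.18 for all peaks, and turned to a log2 difference of -0.05 at the same sum over peaks, so its direction depends on the scaling. The interval lay above 1 at 27 genes and below 1 at 3, with no such count over all peaks. The 2 lower genes were Kcnq3, from 23.5 to 6.84 tags per 10 M (0.292, interval 0.14 to 0.613), and Kcng3, from 31.3 to 14.3 (0.458, 0.263 to 0.774). The highest ratios were those of Kcnd3, from 30.3 to 58.6 (1.93) at a peak 8105 bp inside the gene, Kcnh2, a repolarizing channel of the heart (1.69), and Kcnq1, from 567 to 945 (1.67, 1.53 to 1.82). Kcnq1 is a pore of the slow repolarizing current of the heart. The peak over the Kcnd3 start, listed under Kcnd3os, went from 267 to 329.9 (1.24, 1.09 to 1.41). At Kcna1 the values were 406 and 396. Of 54 genes with a CBX7 ChIP peak and an H3K27me3 CUT&RUN peak, the peaks overlapped at 50.

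RING1B at channel genes fell between ESC and neural progenitors on the deposited scale. The time course had 2 libraries per genotype and stage, from experiments 3 and 5, and 62 channel genes. In WT 34 genes had fallen by day 6 and none had risen, beside 14.6% of all 15091 peaks lower, 1.61% higher, and 18.4% lower among peaks within 10 kb of a start. By day 8 the count was 42 lower and none higher, beside 20.9% lower and 1.73% higher of all peaks and 27.2% lower of those near a start. The median log2 differences from ESC were -1.21 and -1.49, beside -0.47 and -0.61 for all peaks. The channel peaks were also stronger, with a median of 90.9 tags per 10 M in WT ESC against 9.13 for all peaks. Over the strongest peak of every gene that median was 19. Stronger peaks pass the test more easily, so neither the counts nor the medians, here or in CaPS, compare peaks of like strength. The median channel gene held 89.9 and 87.1 tags per 10 M in the WT ESC libraries, 38.5 and 43.6 at day 6, and 26.7 and 35.1 at day 8. Both day-8 libraries lay below both ESC libraries at 54 genes, beside 45.0% of all peaks. The share of all tags that lay in peaks also went down in WT, from 11.16% and 11.81% in ESC to 5.89% and 6.59% at day 6 and 3.86% and 6.98% at day 8. With all libraries brought to the same sum over peaks 9 genes were lower and 3 higher at day 6 and 14 lower and 1 higher at day 8, with medians of -0.34 and -0.39, beside 0.25 and 0.35 for all peaks. In such bulk samples a lower value in every cell and a loss in some of the cells cannot be told apart.

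In CaPS cells 5 genes had fallen by day 6, beside 5.06% of all peaks lower and 2.45% higher, and 26 by day 8, beside 14.1% lower and 1.63% higher. None had risen at either day. At the same sum over peaks 5 were lower and 3 higher at day 6 and 10 lower at day 8, with medians of -0.21 and -0.33, beside 0.16 and 0.13. On the deposited scale the medians were -0.57 and -1.0, beside -0.16 and -0.48. The median channel gene held 75.9 and 81.6 tags in CaPS ESC, 41.8 and 82.6 at day 6, and 32.8 and 43.1 at day 8. The day-6 libraries were unequal: that of experiment 3 was near the WT values and that of experiment 5, with 12.07% of its tags in peaks, near the ESC values. The 2 comparisons of a genotype share its ESC libraries. Kcnk9, Kcna5, Kcnj4 and Kcnk12 were among the 5 that passed at day 6.

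Two-pore genes fell at 8 of 10 by day 6 and 9 of 10 by day 8 in WT. Kcnk9 had the largest day-8 drop in both genotypes. In WT it went from 506 and 405 tags per 10 M in ESC (experiments 3 and 5) to 86.6 and 97.2 at day 6 and 33.0 and 54.0 at day 8 (day 8 log2 -3.39 ± 0.36, adjusted p = 5.47e-18). In CaPS it went from 461 and 572 to 69.4 and 142 at day 6 and 31.4 and 43.1 at day 8 (log2 -3.77, adjusted p = 4.61e-22). Every later library was below every ESC library in both genotypes. Kcnk12, a two-pore gene closely related to Kcnk13, fell likewise at day 8 in WT (log2 -2.20) and CaPS (-1.92), and Kcnk13 went from 372 and 324 to 61.8 and 77.4 in WT (-2.31) and from 211 and 244 to 72.0 and 104 in CaPS (-1.38). Kcnk6 fell by day 6 in WT (log2 -2.27, adjusted p = 5.73e-05).

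Conducting voltage-gated genes fell at 14 of 26 by day 6 and 15 of 26 by day 8 in WT, and at 2 and 12 in CaPS. Kcna5, the channel of the atrial ultrarapid current, went in WT from 81.4 and 115 in ESC to 20.96 and 22.42 at day 6 and 8.89 and 8.06 at day 8 (day 8 log2 -3.37, adjusted p = 2.2e-12). In CaPS it went from 71.5 and 82.7 to 21.2 and 28.9 at day 6 and 22.7 and 24.5 at day 8 (log2 -1.66). Kcna6 read 222 and 209 in WT ESC, 67.5 and 74.7 at day 6 and 23.7 and 22.6 at day 8 (log2 -3.16, adjusted p = 1.01e-14). In CaPS it read 116 and 107, 57.9 and 126 and 40.6 and 43.1 (log2 -1.40). At both genes the CaPS mean was below the WT mean in ESC, and both CaPS libraries were above both WT libraries at day 8. Kcna1, Kcnd3 and Kcnc2 fell by 2.39, 2.44 and 2.26 on the log2 scale by day 8 in WT, and by 1.65, 1.74 and 1.12 in CaPS.

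Among the other classes, silent subunits fell at 4 and 6 of 8 genes in WT and 0 and 3 in CaPS, with Kcns2 (day 8 log2 -2.26) and Kcns3 (-2.16) the largest in WT. Kcnv2 passed in CaPS at day 8 (log2 -2.82) from low values, 13.8 and 10.3 to 2.37 and 0, both values of experiment 5 being below 3 tags. Inward rectifiers fell at 5 and 7 of 8 in WT and 1 and 3 in CaPS. Kcnj4 fell to a like level in both genotypes, from 130.3 and 132 to 36.0 and 42.7 in WT (log2 -1.72) and from 125 and 178 to 33.9 and 47.0 in CaPS (-1.87), and Kcnj9, Kcnj6 and Kcnj12 fell further in WT (day 8 log2 -2.34, -2.05 and -1.88). Auxiliary genes fell at 1 and 3 of 7 in WT and 0 and 3 in CaPS. Among them were Kcnip3 in both genotypes (day 8 log2 -2.04 and -1.38) and Kcne1l in CaPS, from 7.13 and 12.4 to 0.59 and 0. For Kcne1l both day-8 values and the ESC value of experiment 5 were at or below 3 tags. Calcium- or sodium-activated genes fell at 2 of 3 in WT at both days and at 0 in CaPS.

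At some genes with a peak at both stages no change was called. Kcna7, a channel of muscle, read 33.6 and 49.5 in WT ESC and 31.7 and 54.0 at day 8 (log2 0.02 ± 0.40). Kcnn2, a small-conductance channel, read 92.7 and 86.2 in ESC and 56.7 and 80.6 at day 8 (log2 -0.40). The WT groups overlapped at Kcna7, and at Kcnn2 both day-8 libraries were below both ESC libraries. Both genes were picked after their values were seen.

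**Figure D5:**
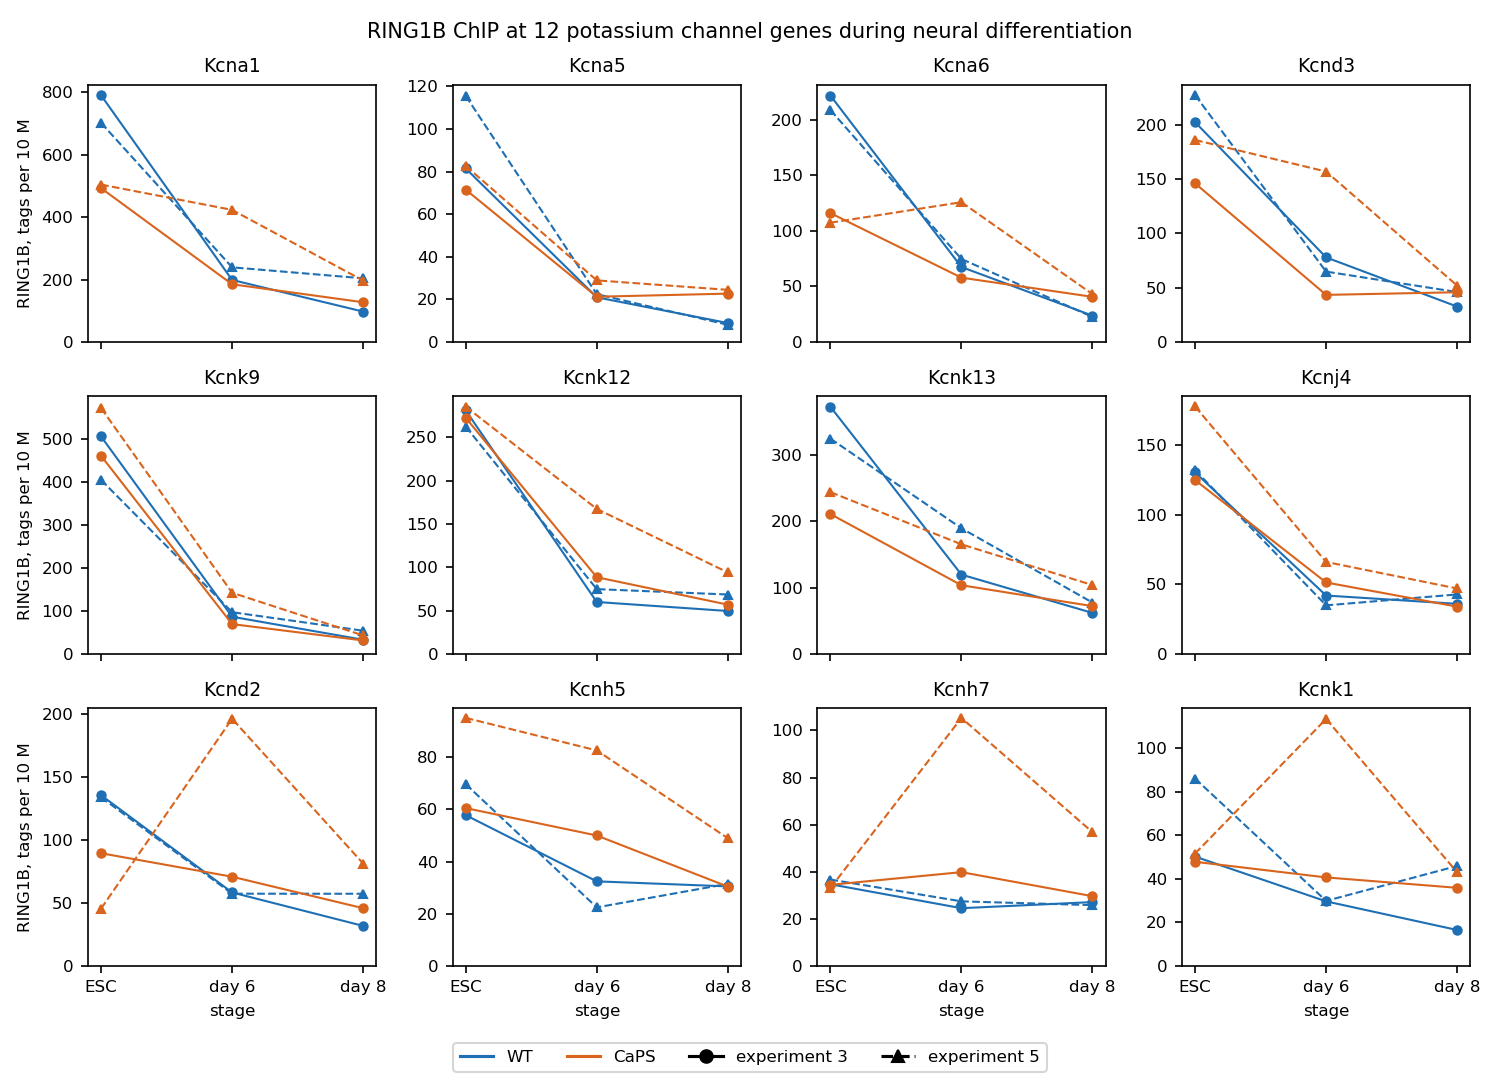
RING1B ChIP at 12 channel genes, in tags per 10 M, in ESC and NPC at days 6 and 8; blue is WT and orange CaPS, circles with solid lines are experiment 3 and triangles with dashed lines experiment 5. Kcnk9 falls along the same path in all 4 series, whereas at Kcnd2, Kcnh7 and Kcnk1 the CaPS library of experiment 5 is above its ESC value at 196, 105 and 114 tags at day 6, where the WT libraries are below theirs.

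The genotypes were also compared directly in this table. At day 6 no channel gene passed between CaPS and WT by limma, where 3.66% of all peaks were higher and 0.325% lower, 13 had an unadjusted p under 0.05, near the 21.5% of all peaks, and edgeR called 0. The median log2 difference was 0.53, beside 0.41 for all peaks, 0.13 in experiment 3 and 0.89 in experiment 5. The smallest p-values were those of Kcnh7, a neuronal member of the ether-a-go-go group (WT 24.5 and 27.4, CaPS 39.8 and 105, log2 1.29, adjusted p = 0.0502), Kcnh5 of the same group (WT 32.4 and 22.4, CaPS 50.0 and 82.6, log2 1.22, adjusted p = 0.0502) and Kcnk1 (log2 1.17, adjusted p = 0.0655). CaPS was above WT in both experiments at all 3 genes. The difference rested mainly on experiment 5: without it the log2 values of Kcnh7, Kcnh5 and Kcnk1 were 0.68, 0.61 and 0.44, and without experiment 3 they were 1.90, 1.84 and 1.89. With a pseudocount of 5 the count became 2 higher, and over peaks with a mean of at least 20 tags per 10 M 3 higher, beside 10.1% of such peaks.

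The change from ESC to day 8 was compared between genotypes by its interaction term. 0 of 62 genes passed, where 0.199% of all peaks were higher and 0.0729% lower, 8 had an unadjusted p under 0.05, beside 7.89% of all peaks, and edgeR called 0, so a different course in CaPS was not shown for any single gene. The median of the interaction was 0.51, beside 0.20 for all peaks, where a positive value stands for a smaller fall in CaPS. The smallest p-values were those of Kcna6 (log2 1.77 ± 0.52, adjusted p = 0.145), Kcnd2, a pore of the transient current (log2 1.57, adjusted p = 0.31), and Kcna5 (log2 1.71, adjusted p = 0.397). Kcnd2 read 135 and 134 in WT ESC and 31.7 and 57.2 at day 8. In CaPS it read 89.4 and 45.5 in ESC and 45.8 and 81.2 at day 8, with overlap between the stages. Without the experiment as a block 20 genes passed at day 6 in WT, and 1 and 17 at days 6 and 8 in CaPS.

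A further table compared RING1B in day-8 NPC between genotypes in experiments 3 and 4. Both of its experiment 3 libraries are also in the time course, the WT library with another total (10.34 M tags here and 11.81 M there). 0 of 54 channel genes passed limma, where 0% of all 5393 peaks did, 3 had an unadjusted p under 0.05, beside 9.86% of all peaks, and edgeR called 0. The median log2 difference was -0.52, beside -0.37 for all peaks, and the experiments differed in sign, with 0.14 in experiment 3 and -1.26 in experiment 4, beside 0.15 and -0.88. The smallest p-value was that of Kcnj4, which read 52.6 in WT and 4.20 in CaPS in experiment 4 and 13.1 and 6.71 in experiment 3 (log2 -2.12 ± 0.75, adjusted p = 0.459). It was lower in CaPS in both experiments, and both CaPS values lay below both WT values. Without experiment 4 its log2 value was -0.87. Kcna1 read 262 in WT and 145 in CaPS in experiment 4 and 74.0 and 107 in experiment 3, opposite in direction. The channel genes whose 2 CaPS libraries lay below both WT libraries were 10, beside 26.8% of all peaks.

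H3K27me3 ChIP in day-8 NPC was deposited as 1 pooled value per genotype, given here as the authors' values with no error. CaPS was below WT past 2-fold at 20 of 65 channel genes and above it at none, beside 54.5% and 3.05% of all peaks. The median ratio was 0.571, beside 0.469, and turned to a log2 difference of 0.19 at the same sum over peaks. Per kb the highest WT levels were those of Kcnc1, a fast voltage-gated channel (137), Kcnh3, a brain channel of the ether-a-go-go group (131), Kcnk13 (130) and Kcnk9 (124). In tags per 10 M Kcnh3 read 943 in WT and 412 in CaPS, Kcnk13 941 and 475, and Kcnk9 756 and 324. All 3 were lower in CaPS, as was every channel gene except Kcnh5. The lowest ratios were 0.189 at Kcnn4, 0.25 at Kcnq5 (171 to 42.7) and 0.286 at both Kcnk3 and Kcnmb4os2, and the highest 1.20 at Kcnh5, 0.965 at Kcnip1 and 0.963 at Kcnj12. Inward rectifiers had a median log2 difference of -0.53 and auxiliary genes -1.36, with no test between them. At the same sum over peaks 2 genes were lower and 1 higher past 2-fold, so the direction depends on the scaling.

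In day-10 EB, RING1B CUT&RUN gave 1 library per genotype. 1 of 50 channel genes was lower and 6 were higher in CaPS past 2-fold, beside 8.46% and 15.8% of all peaks. The median ratio was 1.06, beside 1.12, and the interval lay below 1 at Kcnk9 and above 1 at Kcnab2, Kcnip2 and Kcnj12. The 1 lower gene was Kcnk4, from 16.3 to 6.91 tags per 10 M, with an interval that held 1. Kcnk9 went from 71.5 to 44.7 tags per 10 M (ratio 0.625, 0.438 to 0.885). The highest ratio among genes with at least 20 tags was that of Kcnj12, from 12.2 to 25.2 (2.07, 1.08 to 4.12), and with only such genes counted it was the 1 gene past 2-fold. Per kb the highest WT levels were those of Kcnh2, followed by Kcng3 (27.9) and Kcnk13 (26.2). Kcna1 read 73.2 in WT and 83.7 in CaPS, Kcnk13 66.2 and 74.4, and Kcnip3 82.5 in both.

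Genes of other ion channels (sodium, calcium, pacemaker, chloride and transient receptor potential channels) were set beside the potassium channel genes as a description. In ESC 22 of 34 had lower CBX7 in CaPS and none higher, with a median of -1.05, and the calcium channel genes were 14 of 18 with -1.08. For RING1B 0 of 34 passed limma, with 11 at an unadjusted p under 0.05 and a median of -0.66. In the WT time course 17 of 44 had fallen and 2 risen by day 6, and 19 had fallen and 2 risen by day 8, with medians of -0.88 and -1.35. In CaPS 13 had fallen and 2 risen by day 8, with a median of -1.02. The potassium channel genes, at -1.21, -1.49 and -1.0, lay beside these values, and no test of a difference between the lists was made.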

How the data were processed

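The series holds 71 libraries of mouse J1 cells. The authors deposited peak tables made with HOMER 4.10.4 on mm10 after cutadapt 1.14, Bowtie2 2.3.4.3 and SAMtools 1.9, per the submitters' processing notes, and 9 of them were used. Per the file headers, each deposited value is a signal, the tags inside a peak scaled to a library of 10 M tags. Drosophila spike-in chromatin, where it was added, is not used here, nor are 2 columns that match no single sample. Values multiplied by the library total gave whole read ends (within 0.1) in 100% of cases.

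A gene is represented per table by its peak of highest mean value within 10 kb of a start. The members, classes and comparison lists were chosen with earlier results of these data known. limma 3.58.1 (R 4.3.3, trended empirical Bayes) was run on log2(value + 1), with the experiment number of the titles as a block, over all peaks of a table, followed by Benjamini-Hochberg adjustment and a threshold of 0.05. The prior degrees of freedom were estimated as infinite in every table, so each SE is the trend of spread against level over all peaks, and the spread of a single gene does not enter its p-value. edgeR 4.0.16 on the recovered read ends called 43 channel genes for CBX7 in ESC, 31 and 45 for RING1B at days 6 and 8 in WT, 6 and 31 in CaPS, and 0 in the other 5 comparisons. The series' design text pairs libraries by experiment, and residuals of paired libraries correlated at 0.043 to 0.303 for CBX7, -0.02 to 0.229 for RING1B in ESC, 0.094 for H3K27me3, 0.253 in day-8 NPC and 0.065 to 0.215 in the time course. With 1 library per group no test was made, and a ratio with an exact conditional binomial 95% interval (SciPy 1.17.1) is given; for pooled columns only the authors' value. The limma script was tested on simulated data.

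Named are the 5 highest genes per table, up to 10 called genes of largest change or else the 3 with the smallest p-values, the 4 lowest and highest ratios among genes with at least 20 tags per 10 M, stage-limited genes and the highest CBX7 gene of each class. Some genes that this rule names are not reported here. Other channel genes were Scn, Cacna1, Cacna2d, Cacnb, Cacng, Hcn, Clcn and Trp symbols, and marker lists were those for pluripotency, neural progenitors, mesoderm and endoderm, and feeder fibroblasts. Alternatives were a pseudocount of 5, a minimum of 20 tags per 10 M, peaks within 2 kb, the same sum over peaks, no block, edgeR and leaving out each experiment.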

Additional observations from a re-analysis of the deposited data

Results flagged for a closer look

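At 3 genes every CaPS library moved opposite to every WT library between ESC and day 6 in RING1B ChIP. The same was not counted over all peaks, so the number has no background and is no result about channel genes. Kcng3 had a log2 change of 0.12 in CaPS and -0.76 in WT, Kcnj8 0.78 and -0.52, and Kcnh7 0.92 and -0.45. This difference between genotypes was not tested at day 6, and the CaPS day-6 library of experiment 5, with 12.07% of its tags in peaks, takes part in all 3 values. None of the CaPS changes passed the test.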

How the results depend on the processing

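Counts of called channel genes stayed within 1.5 times under 63 of 85 alternatives. With all libraries brought to the same sum over peaks they became 2 for CBX7 in ESC, 12 and 15 at days 6 and 8 in WT, 8 and 10 in CaPS, 2 for RING1B in day-8 NPC, 1 and 2 for CaPS and mCaPS RING1B CUT&RUN, and 3 for day-8 H3K27me3. Without the replicate block, that is without pairing by experiment, they were 0 for CBX7, 20 at day 6 in WT, and 1 and 17 at days 6 and 8 in CaPS, and no other call count left that range. A pseudocount of 5 gave 1 gene for RING1B in ESC and 2 for the day-6 genotype difference. A minimum of 20 tags per 10 M gave 2 and 3 there, 9 at day 6 in CaPS and 1 in day-10 EB. Leaving out 1 experiment gave 21 to 47 genes for CBX7 and 0 to 18 for RING1B in ESC. In the tables with 2 experiments, leaving out 1 gives values with no test, and H3K27me3 at the intronic peak listed under Kcnd3 ran from -0.24 to 2.17. The cause of these shifts was not tested. One alternative, RING1B CUT&RUN without peaks listed at 0, was chosen after seeing the data and gave 21 genes. Depth limits the shallow libraries most: in the CaPS CBX7 library of experiment 2, 3 tags stand for 11.4 tags per 10 M.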
